A study of Danio rerio with 18 samples.

Results

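The 10 ribose-methylated sites of zebrafish 28S rRNA whose names carry a number of 4400 or more lie in the 3' part of the molecule and include the A-loop of the ribosome's catalytic centre. They were taken by site number alone, from 98 sites listed by the authors, of which 60 are in 28S rRNA. The first site inside the limit is Cm4426 and the last one outside is numbered 4362. In a name, the letter gives the nucleotide, m the methyl group on its 2' oxygen, and the number the authors' numbering, which differs from the position in the rRNA of the files. The 10 sites comprise 2 A, 3 C, 3 G and 2 U.

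Ribose methylation was read by RiboMeth-seq in whole-cell RNA of zebrafish for which the labels give a stage or tissue and no strain, allele, treatment or age in days. There were 3 libraries each of unfertilized egg, 32-cell embryos, 12-somite embryos and protruding-mouth larvae, and 2 libraries of adult tail (trunk). Replicates were biological, per the series' design text. Whole tissue was extracted, so each value averages over all ribosomes of all its cells, and a change in the ribosomes of 1 cell type cannot be told apart from a change in the mix of cells. Libraries of egg, 32-cell and 12-somite were counted on the early rRNA sequence, and those of protruding-mouth and adult tail on the late one, so between these sets the stage, the rRNA type and the sequence used for mapping cannot be told apart.

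A methyl group on the 2' oxygen shields the neighbouring bond of the RNA backbone from alkali, so that few fragments end at a methylated nucleotide. In eukaryotes most of these groups are placed by fibrillarin, guided by box C/D small nucleolar RNAs that pair with the rRNA, while a few are placed by enzymes that need no guide. The A-loop, at the tip of helix 92 of the large subunit, holds the acceptor end of the A-site tRNA during peptide bond formation, and the sarcin-ricin loop near the 3' end of the same rRNA is where elongation factors bind and where ricin removes an adenine. In yeast, the U of the A-loop is methylated with a guide and the G next to it by Spb1, an enzyme related to human FTSJ3.

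The sequences below are those of the rRNA in the files, 5' to 3', with the methylated nucleotides in capitals. The A-loop stretch is shown because 3 of the 10 sites fall on its GGAUUGUUC, a run of letters that occurs once in each of the early and late rRNA. It covers positions 3754 to 3799 of the early rRNA, with Gm4464, Um4468, Gm4469 and Am4493 in capitals. The stretch around the sarcin-ricin loop is shown in both forms because it is where late and early rRNA differ within 6 nucleotides of a site. It covers positions 3697 to 3754 of the late and 3848 to 3905 of the early rRNA, with Am4560, Um4590 and Gm4593 in capitals.
A-loop, early rRNA: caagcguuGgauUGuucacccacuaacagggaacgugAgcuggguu
sarcin-ricin loop, late rRNA: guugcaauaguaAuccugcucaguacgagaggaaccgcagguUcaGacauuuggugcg
sarcin-ricin loop, early rRNA: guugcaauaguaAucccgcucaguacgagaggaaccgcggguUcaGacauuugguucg

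The A-loop pair stood at 3616 and 3617 of the late rRNA and 3766 and 3767 of the early rRNA. The conserved start of the sarcin-ricin loop, AGUACGAGA, searched like the A-loop letters on the rRNA strand alone, occurred once in each rRNA. Am4560 lay 15 nucleotides before the adenine that ricin removes, Um4590 15 after it and Gm4593 18 after it, so that these sites flank the loop from both sides. From Cm4426 to Gm4593 the late rRNA spans 169 nucleotides and the early one 170, of which 163 paired positions were identical and 6 differed. The base 4 nucleotides after Am4560 was U in the late and C in the early rRNA, and the base 4 before Um4590 was A in the late and G in the early rRNA. These were 2 of the 10 sites with such a difference within the 6 flanking positions on which the score rests, against 15 of all 98. Cm4983 stood alone, 293 nucleotides after Gm4593 in the early rRNA, in a window that was the same in both forms.
Cm4983, both forms: cucguagacgacCugauucuggguc

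The RiboMeth-seq score compares the read ends at a nucleotide with those at 6 flanking positions on each side. It is 1 where no fragment ends at the nucleotide and 0 where at least as many end there as at its neighbours. Depth per library ran between 1494730 read ends (adult tail A) and 15358081 (egg 1). The flanks of the 10 sites held on average 106.6 read ends or more, with the lowest mean in 12-somite 3. This library also had the highest median score over the unlisted positions of the stretch, 0.240, against medians of 0 to 0.166 in the other 13 libraries. Adult tail A, the shallowest library, had a median of 0 there.

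Most of the 10 sites were close to fully methylated at every stage. By stage means, 9 of the 10 reached 0.75, the limit used here for full methylation, in egg, in 32-cell embryos, in 12-somite embryos and in protruding-mouth larvae, and 10 of 10 did in adult tail. With 5' ends alone, which were not scored in adult tail, 10 of 10 did in the stages between egg and adult tail, since Am4560 then reached 0.75 there, and 9 of 10 in egg. With both ends over all 98 sites the numbers were 92, 87, 86, 87 and 92 in the same order of stages. In single libraries, 7 of the 10 sites were at or above 0.75 in all 14, against 76 of 98 overall. Of the 140 library scores 12 were below 0.75, and 10 of these belonged to Am4560, with 1 each at Gm4469 and Um4590. The median of the 10 stage means was 0.914 in egg, 0.941 in 32-cell embryos, 0.924 in 12-somite embryos, 0.935 in protruding-mouth larvae and 0.938 in adult tail. For all 98 sites it was 0.943, 0.939, 0.929, 0.930 and 0.937.

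**Figure D1:**
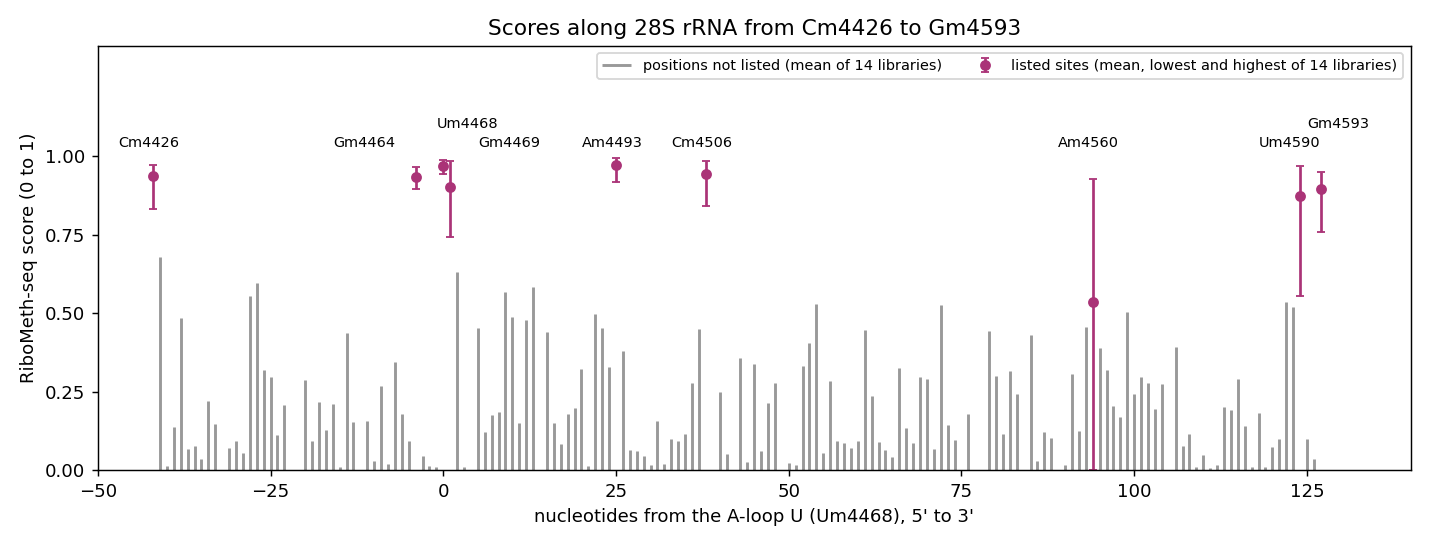
RiboMeth-seq score (0 to 1) along the 28S rRNA from Cm4426 to Gm4593, against the distance in nucleotides from the U of the A-loop. Grey lines give the mean over 14 libraries of the 160 positions that are not listed, and points the mean, lowest and highest library of the 9 listed sites. Am4560 is the site whose lowest library reaches 0, while the 3 A-loop sites span 0.742 to 0.987.

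The positions between the sites were taken as the background of the assay. The authors' overview that lists the sites gives their mean scores in these same libraries. A contrast of listed and unlisted positions is thus a description and no independent support for the list. None of the 160 unlisted positions from Cm4426 to Gm4593 reached 0.75 in every library of any stage, against 8 of the 9 listed sites of the stretch in egg, 7 in 32-cell embryos and 8 at each later stage. The median unlisted position had a stage mean of 0.116 in egg, 0.140 in 32-cell embryos, 0.156 in 12-somite embryos, 0.142 in protruding-mouth larvae and 0.112 in adult tail. Single unlisted positions came closer. The U after Cm4426 had a mean of 0.678 over the 14 libraries and reached 0.75 in 5 of them, and the G that lies 2 before Um4590 had a mean of 0.829 in 32-cell embryos. In egg the mean of Am4560, 0.245, lay below the highest unlisted position, at 0.655, and the means of the other 8 sites of the stretch lay above it. In 32-cell embryos Um4590, at 0.783, and Am4560, at 0.394, both lay below the highest unlisted mean of 0.829. Am4560 was also below it in 12-somite embryos (0.657 against 0.809) and in protruding-mouth larvae (0.602 against 0.745). In adult tail all 9 sites lay above the highest unlisted mean, 0.659.

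With both read ends, the U of the A-loop pair was the steadiest of the 10 sites. Um4468 scored 0.981, 0.987 and 0.967 in egg, 0.970, 0.943 and 0.965 in 32-cell embryos, 0.953, 0.951 and 0.968 in 12-somite embryos, 0.967, 0.968 and 0.971 in protruding-mouth larvae, and 0.982 and 0.976 in adult tail. All 14 libraries were above 0.94. The adult libraries lay inside the range of the egg libraries and above those of the 3 stages between. Its SD within stages, pooled over the 5 stages, was 0.00959, rank 91 of 98 from the most variable. The adult tail mean was 0.979 and the egg mean 0.978, a difference of 0.000973 with a 95% interval of -0.0253 to 0.0272 (limma, adjusted p = 0.958 after Benjamini-Hochberg). Over the other comparisons the difference of Um4468 lay between -0.0188, for 32-cell against egg, and 0.0111, for protruding-mouth against 12-somite, with no call.

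Gm4469, the G of the pair, was lower and less even. It scored 0.858, 0.90 and 0.954 in egg, 0.943, 0.833 and 0.882 in 32-cell embryos, 0.943, 0.934 and 0.960 in 12-somite embryos, 0.984, 0.875 and 0.929 in protruding-mouth larvae, and 0.742 and 0.864 in adult tail. Both adult libraries lay below all protruding-mouth libraries, while adult tail B lay inside the range of the egg libraries. Adult tail A had the lowest score, from 57 read ends where 220.6 were expected from the flanks (95% counting interval of the score 0.665 to 0.804). The mean was 0.803 ± 0.0862 (SD, n = 2) in adult tail and 0.929 ± 0.0549 (n = 3) in protruding-mouth larvae. The difference of -0.127 (SE 0.0450) was not called, with an unadjusted p of 0.0177 and an adjusted p of 0.158 in limma. Against egg, at 0.904 ± 0.0480 (n = 3), adult tail differed by -0.101 (SE 0.0450, limma adjusted p = 0.333). Adult tail A carried more of the difference from protruding-mouth, which was -0.0656 without it and -0.188 without adult tail B, neither called. The difference from egg was -0.0405 without adult tail A and -0.162 without adult tail B, neither called. In pairs with the same barcode, adult tail A differed from protruding-mouth 2 by -0.133 and adult tail B from protruding-mouth 3 by -0.0651.

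Read ends of the 2 kinds did not give the same picture of Gm4469. In the 12 libraries for which 5' ends were counted apart, 3' ends made up a median of 93.8% of the ends at this nucleotide, against 54.8% in its flanks. Such an excess was not particular to Gm4469. At Cm4506 the shares were 86.3% and 26.2%, while Um4468 had no excess, at 47.2% and 51.8%. The median change from both ends to 5' ends alone was a rise at 9 of the 10 sites and at 78 of all 98. From 5' ends alone Gm4469 scored between 0.957 and 0.998 in these 12 libraries. Um4468 ran between 0.886, in 32-cell 2, and 0.994, in egg 3, on the same ends, so that the G then had the narrower range. By SD within stages on these ends, the G was steadier in egg (0.00496 against 0.00854) and 32-cell embryos (0.00587 against 0.0472). It was less steady than the U in 12-somite embryos (0.0149 against 0.0106) and about equal in protruding-mouth larvae (0.00497 against 0.00488). Adult tail was not scored this way, since only the columns of both ends together were used for its libraries. The G is preceded by a methylated U, and each of the 2 is among the other's flanking positions. With all listed sites left out of the flanks, a setting added after the values were seen, the score of Gm4469 rose by at most 0.0534 in any library, and its difference between adult tail and protruding-mouth became -0.103 (limma adjusted p = 0.155).

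Gm4464, the G at the start of the A-loop letters, scored between 0.896 and 0.965 over the 14 libraries, with stage means between 0.906 and 0.944. Am4493, 25 nucleotides after the A-loop U, scored between 0.918 and 0.992, and Cm4506, 13 further on, between 0.840 and 0.985. Cm4426, which lies 42 nucleotides before the A-loop U, scored between 0.831 and 0.972. The lowest of these values were single libraries, 32-cell 2 for Am4493, egg 1 for Cm4506 and egg 3 for Cm4426. Stage means of these 4 sites moved by at most 0.0696, at Cm4426, whose mean was 0.971 ± 0.00165 (n = 2) in adult tail and 0.901 ± 0.0630 (n = 3) in egg. Cm4983, the last site of the molecule, scored between 0.855 and 0.978, lowest in adult tail A.

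**Figure D2:**
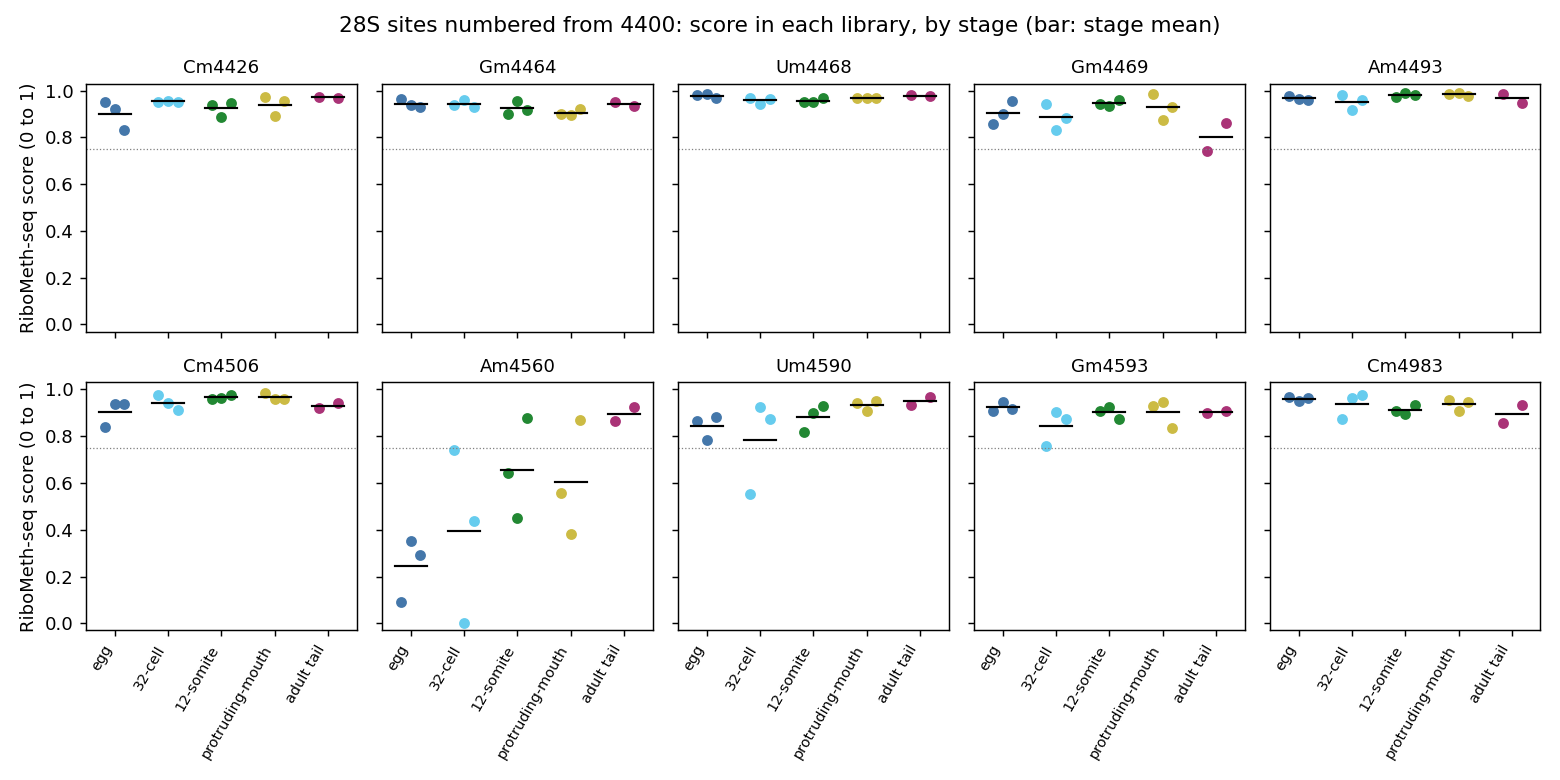
RiboMeth-seq score (0 to 1) of the 10 sites in each of the 14 libraries, by stage from egg to adult tail. Each point is 1 library, the bar is the stage mean, and the dotted line marks 0.75. The points of Am4560 run between 0 and 0.927, and those of 7 sites stay above the dotted line in every library.

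Am4560 was the site at which libraries differed most. It scored 0.0906, 0.351 and 0.293 in egg, 0.743, 0 and 0.439 in 32-cell embryos, 0.641, 0.451 and 0.877 in 12-somite embryos, 0.556, 0.382 and 0.869 in protruding-mouth larvae, and 0.866 and 0.927 in adult tail. The adult libraries were both high and all egg libraries low, with no overlap, while the stages between them covered most of the scale. The stage means were 0.245 ± 0.137 in egg, 0.394 ± 0.373 in 32-cell embryos, 0.657 ± 0.213 in 12-somite embryos, 0.602 ± 0.247 in protruding-mouth larvae (SD, n = 3 each) and 0.896 ± 0.0433 in adult tail (n = 2). Its range of 0.927 was the widest of all 98 sites, and its pooled SD within stages, 0.243, ranked 3 of 98.

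The counting intervals of egg 1 and adult tail A were narrow beside this spread. In egg 1, 2393 fragment ends were seen where 2632 were expected, and the 95% counting interval of the score ran from 0.0535 to 0.127. In adult tail A only 35 ends were seen of 260.6 expected, which gave an interval of 0.813 to 0.906. Such intervals cover counting of the ends at the site alone, with the expectation from the flanks held fixed. Reads without molecular identifiers are not independent molecules, so the intervals do not bound the whole sampling error. In adult tail against egg the difference was 0.652 (SE 0.206, 95% interval 0.194 to 1.11, unadjusted p = 0.00969), the second largest of the 98 sites in that comparison. It was not called over all sites, with an adjusted p of 0.127 in limma. When adult tail and egg were fitted without the other stages, which vary more at this site, limma gave an adjusted p of 0.0222 for the same difference. Sites outside the 10 were called in that fit too, and their number among all 98 is not given here. Without adult tail A the difference was 0.682 and without adult tail B 0.621, neither called, and over the 15 alternatives the adjusted p ran between 0.0222 and 0.698.

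The comparisons of neighbouring stages gave no call at Am4560 either. The 32-cell mean was higher than the egg mean by 0.149 (SE 0.185, limma adjusted p = 0.816), and leaving out single libraries it ran between -0.0252, without 32-cell 1, and 0.346, without 32-cell 2. The 12-somite mean was above the 32-cell mean by 0.263 (SE 0.185, adjusted p = 0.785), the largest difference of the 98 sites in that comparison but inside the spread between libraries. It was 0.0658 without 32-cell 2, 0.437 without 32-cell 1 and 0.152 without 12-somite 3. Protruding-mouth differed from 12-somite by -0.0543 (95% interval -0.463 to 0.355). Adult tail exceeded protruding-mouth by 0.294 (SE 0.206, adjusted p = 0.579), and protruding-mouth exceeded egg by 0.358 (SE 0.185, adjusted p = 0.437). Without protruding-mouth 3 protruding-mouth exceeded egg by 0.224, and without protruding-mouth 2 adult tail exceeded protruding-mouth by 0.184, neither called.

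Part of the spread at Am4560 moved with the sequencing barcode named in the file headers. A barcode was shared by 32-cell 2 and egg 1, which scored 0 and 0.0906, and another by 32-cell 3 and egg 2, which scored 0.439 and 0.351. 12-somite 3, protruding-mouth 3 and adult tail B shared a barcode as well and scored 0.877, 0.869 and 0.927. Another barcode did not go with 1 level, since 12-somite 2, protruding-mouth 2 and adult tail A had it and scored 0.451, 0.382 and 0.866. Same-barcode libraries were found in 4 pairs of stages. Within these pairs of stages, the mean absolute difference at Am4560 was 0.150 over the 9 pairs of libraries with the same barcode, against 0.318 over the 21 with different barcodes. Um4590 had 0.0461 and 0.0886 for the same 2 kinds of pairs. Same-barcode pairs were closer at 8 of the 10 sites and at 64 of all 98, and the pairs share libraries, so the values are a description. Outside egg and 32-cell, libraries with the same barcode also have the same number in their headers, so barcode and number cannot be told apart there.

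Within a barcode, Am4560 differed between 32-cell and egg by -0.0906 and 0.0883 with both ends (0.301 and 0.101 with 5' ends alone). Between protruding-mouth and 12-somite it differed by -0.0847, -0.0697 and -0.00856 with both ends (-0.116, 0.0360 and 0.0556 with 5' ends alone). Adult tail exceeded protruding-mouth by 0.484 in the pair with adult tail A and by 0.0582 in the pair with adult tail B. With barcode as a block, the 32-cell against egg difference became -0.00119 (limma adjusted p = 0.996). No barcode of the egg or 32-cell libraries was used at a later stage. In the comparisons of 12-somite with 32-cell, protruding-mouth with egg and adult tail with egg, barcode and stage therefore cannot be told apart.

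The values of Am4560 changed with the kind of read end too. From 5' ends alone it scored 0.541, 0.756 and 0.594 in egg, 0.915, 0.842 and 0.857 in 32-cell embryos, 0.75, 0.723 and 0.880 in 12-somite embryos, and 0.635, 0.759 and 0.936 in protruding-mouth larvae. Every one of the 12 libraries was higher this way, and 32-cell became the highest of the 4 stages. The median gain was 0.287, against 0.0140 for the median of all 98 sites, and 1 of the 10 sites and 8 of the 98 gained at least 0.1. 3' ends made up between 6.19% of the ends at this nucleotide, in 12-somite 3, and 89.8%, in 32-cell 2. In the flanks of these libraries they made up 3.19% and 29.7%. The score of 32-cell 2 was 0 with both ends and 0.842 with 5' ends. Similar shares at the site also went with unlike scores. Egg 1 had 72.6% and scored 0.0906 with both ends, and 32-cell 1 had 77.2% and scored 0.743. The 12-somite against 32-cell difference, 0.263 with both ends, was -0.0868 with 5' ends (limma adjusted p = 0.738), and protruding-mouth against egg became 0.146 (adjusted p = 0.438). The 32-cell against egg difference grew to 0.241 with 5' ends, with no overlap between the stages and no call (adjusted p = 0.401). The part of read-end kind and of barcode in the difference between adult tail and egg was not tested.

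**Figure D3:**
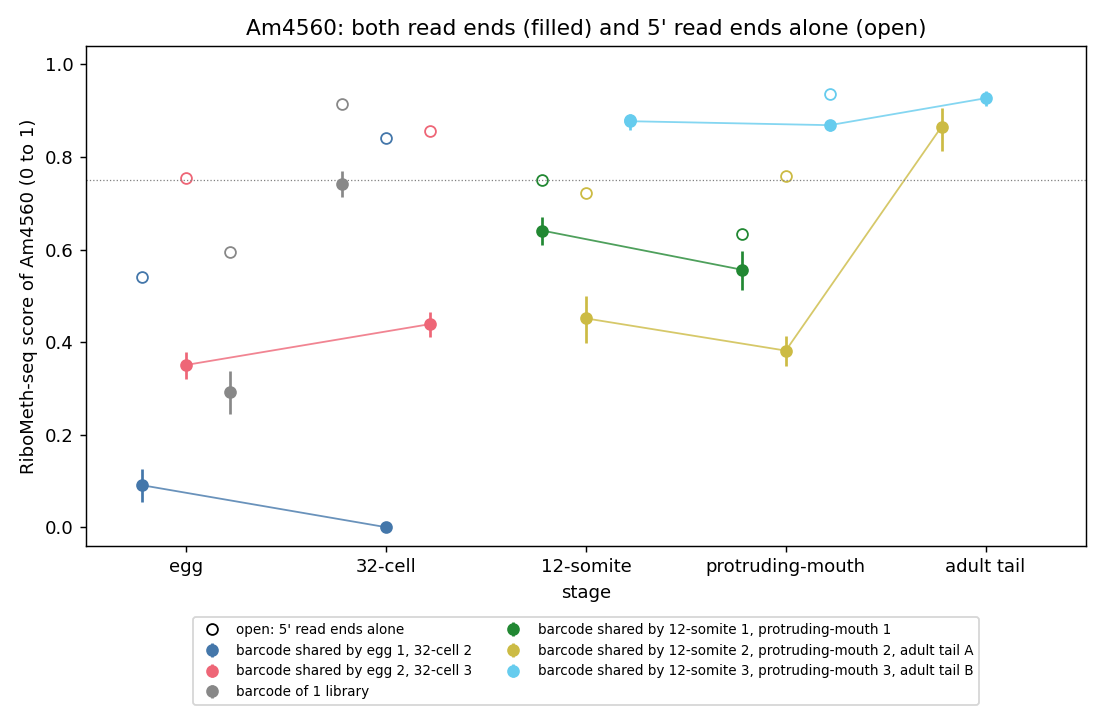
RiboMeth-seq score of Am4560 (0 to 1) in the 14 libraries by stage. Filled points use both read ends with their 95% counting interval, open points 5' ends alone (12 libraries, with the open point of 12-somite 3 hidden behind its filled one), and lines join libraries with the same barcode. Both adult libraries sit above 0.86 and all 3 egg libraries below 0.36 with both ends.

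Um4590 and Gm4593, the pair of sites 3 nucleotides apart after the sarcin-ricin loop, were high except in the first 32-cell library. Um4590 scored 0.867, 0.783 and 0.881 in egg, 0.553, 0.924 and 0.873 in 32-cell embryos, 0.819, 0.898 and 0.931 in 12-somite embryos, 0.940, 0.908 and 0.949 in protruding-mouth larvae, and 0.935 and 0.968 in adult tail. Both adult libraries were above all 3 egg libraries. The difference of 0.108 between adult tail and egg was within the spread of the libraries (SE 0.0873, limma adjusted p = 0.635). Protruding-mouth exceeded egg by 0.0892, which was not called with both ends (95% interval -0.0838 to 0.262). With 5' ends alone, Um4590 scored 0.982, 0.986 and 0.950 in protruding-mouth larvae, against 0.901, 0.916 and 0.919 in egg, without overlap. On these ends protruding-mouth exceeded egg by 0.0606 and Um4590 was called (limma adjusted p = 0.0286), as were sites outside the 10. The number called among all listed sites is not given here, so this call has no background beside it. The base 4 nucleotides before Um4590 differs between the late and early rRNA, and these stages share no barcode. Stage, rRNA sequence and barcode therefore cannot be told apart in this difference.

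Gm4593 ranged from 0.757, in 32-cell 1, to 0.948, in protruding-mouth 2. Its stage means were 0.923 in egg, 0.844 in 32-cell embryos, 0.902 in 12-somite embryos, 0.904 in protruding-mouth larvae and 0.904 in adult tail. In 32-cell 1 the 5'-end score of Um4590 was 0.938, while its score with both ends, 0.553, was the lowest of the site. Gm4593 stayed low in that library with 5' ends alone, at 0.762. Without 32-cell 1 no comparison gained or lost a called site among the 10.

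Counted over the 10 sites, no comparison of 2 stages called any of them in limma at an adjusted p under 0.05. For 32-cell against egg, 0 of 10 were called beside 0 of 98 overall (0%). At an unadjusted p under 0.05 in limma there were 0 of 10 and 5 of 98 (5.1%). A quasi-binomial fit of the counts, run as an alternative, also called 0 of the 10, with 1 of them at an unadjusted p under 0.05. Unadjusted p values of that fit were counted for the 10 sites alone and not for all 98. Its calls are given for the 10 alone too, so no count of that fit has a background beside it. For 12-somite against 32-cell the counts were again 0 of 10 and 0 of 98 (0%), and 0 of the 10 in the quasi-binomial fit. Unadjusted, there were 0 of the 10 in either, beside 5 of 98 (5.1%) in limma. Protruding-mouth against 12-somite gave 0 of 10 and 0 of 98 (0%) as well, with 0 of the 10 in the quasi-binomial fit. Again 0 of the 10 passed unadjusted in either, beside 6 of 98 (6.12%) in limma. These stages share their number and barcode in all 3 pairs of libraries, and with the replicate number or the barcode as a block limma again called 0 of the 10. In the pairs, with both ends, 5 of the 10 sites and 34 of 98 (34.7%) differed in 1 direction throughout, with Um4590 higher in protruding-mouth larvae by 0.122, 0.0104 and 0.0187, Cm4426, Um4468 and Cm4983 higher as well and Am4560 lower. With 5' ends alone Um4590, Cm4426 and Um4468 stayed higher throughout, and Gm4464 was lower in all 3 pairs. Directions on these ends were not counted over all 98 sites, so they have no background beside them. With 5' ends Am4560 (-0.116, 0.0360 and 0.0556) and Cm4983 (0.0154, -0.0140 and -0.0721) differed in both directions.

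The wider comparisons called sites elsewhere in the rRNA and none of these 10. Adult tail against protruding-mouth called 6 of 98 (6.12%) and 0 of the 10, with 1 of the 10, Gm4469, and 13 of 98 (13.3%) at an unadjusted p under 0.05. Protruding-mouth against egg called 2 of 98 (2.04%) and 0 of the 10, with 2 of the 10, Gm4464 and Cm4506, and 12 of 98 (12.2%) at an unadjusted p under 0.05. Adult tail against egg called 3 of 98 (3.06%) and 0 of the 10, with 2 of the 10, Gm4469 and Am4560, and again 12 of 98 (12.2%) at an unadjusted p under 0.05. In the F test over all 5 stages 3 of 98 (3.06%) and 0 of the 10 were called, and the lowest adjusted p of the 10 was 0.373. At shares this low, 0 of 10 is near the background, and so are 1 or 2 of 10 at an unadjusted p. The quasi-binomial fit called 0 of the 10 in these 4 tests too, with 2 at an unadjusted p under 0.05 in protruding-mouth against egg, 0 in the adult comparisons and 1 over all stages. These unadjusted counts, too, were not made for all 98 sites, and the calls of this fit are given for the 10 alone. Whether its counts are high or low for the rRNA as a whole cannot be read from them.

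By size alone, stage means at least 0.1 apart were found at 1 of the 10 sites for 32-cell against egg, where 10 of 98 were (10.2%), and at 1 for 12-somite against 32-cell, where 6 of 98 were (6.12%), both times Am4560. Protruding-mouth against 12-somite had 0 of 10 and 7 of 98 (7.14%). Adult tail against protruding-mouth had 2 of 10, Am4560 and Gm4469, and 14 of 98 (14.3%). Protruding-mouth against egg had 1 of 10, Am4560, and 13 of 98 (13.3%), and adult tail against egg 3 of 10, Am4560, Gm4469 and Um4590, and 20 of 98 (20.4%). The median absolute difference between adult tail and egg was 0.0471 over the 10 sites and 0.0291 over all 98. By sign, 5 of the 10 were higher and 5 lower in adult tail than in egg.

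**Figure D4:**
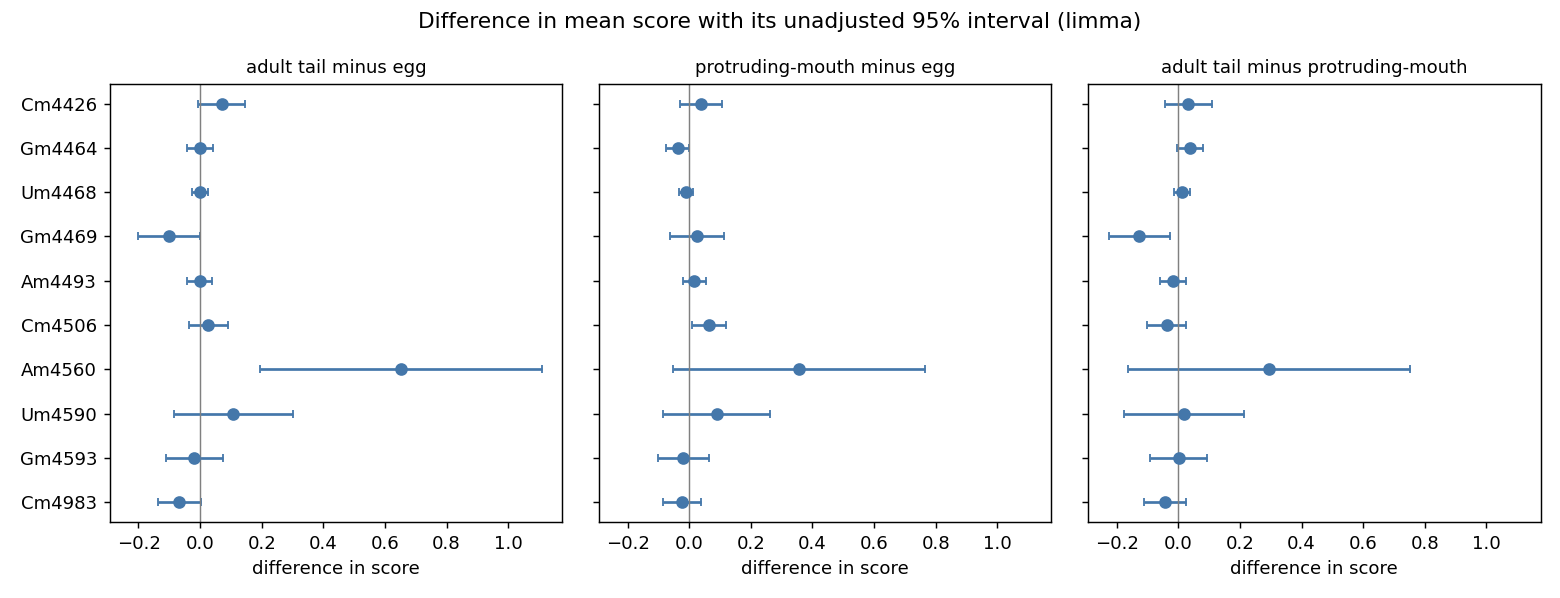
Difference in mean RiboMeth-seq score of each of the 10 sites with its unadjusted 95% interval from limma, for adult tail minus egg, protruding-mouth minus egg and adult tail minus protruding-mouth. The interval of Am4560 for adult tail minus egg runs from 0.194 to 1.11 and those of Um4468 are the narrowest; no adjusted p is under 0.05.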

How the data were processed

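RiboMeth-seq RNA was fragmented with alkali and fragments of 20 to 40 nt were sequenced, per the labels' protocols. The submitters' processing notes name cutadapt 2.0 and Bowtie2 2.3.4.1. The deposited stage sheets give raw read-end counts per rRNA position (5' ends, and 5' plus 3' ends) and the authors' methylation fraction per library. The authors' overview gives the score as stage means, some of which carry a barcode correction, per the file headers. Here the score was computed from the counts as 1 minus the ends over the mean of both sides' weighted flank means (6 positions, weights 1 to 0.5, floor 0). In the 12 libraries other than adult tail it differed from the deposited fraction by at most 5.00e-13. Adult headers do not match the sample titles, so adult libraries are called A and B. In all, 46 columns of values per library and 4 small-RNA samples were not used.

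Scores were tested untransformed with limma 3.58.1 (R 4.3.3), stage means as model, over 98 sites and 14 libraries, in 6 comparisons of 2 stages and 1 F test over stages. Benjamini-Hochberg adjustment ran over the 98 sites, with a threshold of 0.05. A mean of 10 read ends in the flanks was required, and every site passed. Biopython 1.88 aligned the late with the early rRNA. Every member was described. Values per library were given for the A-loop pair, for called members, and for members with a stage mean under 0.75 or stages at least 0.1 apart, and other ranges were chosen after the values were seen. Where libraries of compared stages are said not to overlap, no count of such cases over the 98 sites is set beside them.

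Across sites, libraries of the same number deviated together in each pairing of protruding-mouth, 12-somite and 32-cell (3 of 3 correlations over 0.1 in each of these pairs of stages) and not with egg (0 of 3). Protruding-mouth and 12-somite libraries of the same number also share a barcode, so number and barcode cannot be told apart in that pairing. Nothing in the labels says that a number marks a shared source. Alternatives were another scale, flank or coverage setting, other models and blocks, 5' ends alone, and leaving out each library. A further one used library scores rebuilt to match the authors' barcode-corrected stage means (the corrected scores), which changed none of the 10 sites. The members and lists were chosen with earlier results of these data known. Other work used pandas 2.3.3 and matplotlib 3.10.9 in Python 3.11.15, with numpy 2.4.6, and exact Poisson counting intervals from scipy 1.17.1.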

Additional observations from a re-analysis of the deposited data

How the results depend on the processing

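Of 185 recounts of the 10 sites called under the alternatives, 183 stayed at 0 and 2 became 1: Um4590 in protruding-mouth against egg with 5' read ends alone, and Am4560 in adult tail against egg with these stages fitted alone. Sites outside the 10 were called in both of these settings too, so the calls are not particular to the 2 sites. The number called among all 98 sites in these settings is not given here, so neither call is set beside its background. Leaving out single libraries kept every count at 0, in the range of 0 to 0. With the replicate number as a block, no comparison that could be fitted called a site, and the pairing moved Am4560 in 32-cell against egg to an adjusted p of 0.814 (limma). The numbers in the adult headers do not match the sample titles, so no replicate block was fitted for the adult libraries. Their 5' ends were not scored. Differences that were not called changed sign as follows, and the cause was not tested. Am4560 became -0.00119 with the barcode block (32-cell against egg) and -0.0868 with 5' ends (12-somite against 32-cell). With 5' ends Gm4469 became -0.0173 (12-somite against 32-cell), 0.0148 (protruding-mouth against 12-somite) and -0.00407 (protruding-mouth against egg), and on the logit scale 0.00229 logit units (protruding-mouth against 12-somite). Um4468 became 0.00601 with centring and 0.00505 with 5' ends (12-somite against 32-cell), 0.0038 with centring (protruding-mouth against egg), and -0.0153 logit units on the logit scale, -0.00299 with 2 flanks and -0.0029 with the quasi-binomial fit (adult tail against egg). Leaving out single libraries, Am4560 ran from -0.0252 to 0.346 and Gm4469 from -0.0466 to 0.00794 in 32-cell against egg, and Um4468 from -0.0104 to 0.00328 in 12-somite against 32-cell. Gm4469 ran from -0.0443 to 0.0107 in protruding-mouth against 12-somite and from -0.00244 to 0.0525 in protruding-mouth against egg, and Um4468 from -0.00469 to 0.0053 in adult tail against egg. Of 50 stage means, 11 moved by more than 1 SD with 2 flanks, 1 with listed sites left out of the flanks and 0 with the corrected scores, and of 40 with 5' ends 28 did. The number of the 10 sites with a stage mean of at least 0.75 stayed at 9 in egg, ran from 8 to 10 in 32-cell embryos and from 9 to 10 at the later stages. With 2 libraries, adult tail limits every comparison it enters.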
